A study of Mus musculus with 13 samples.

Results

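The pericentromere-associated domains (PADs) of mouse embryonic stem cells (ESCs) were compared with those of the thymus, fragment end by fragment end. Sat4C is a chromosome conformation capture assay with the major satellite repeat as viewpoint, and its calls state for each 4C fragment end whether the DNA lay in a PAD or in a non-PAD. The ESCs were the line IB10, of the strain 129/Ola, grown in culture and measured in 3 replicates. The thymus was tissue of adult male C57BL/6 mice, passed through a cell strainer, with 3 biological replicates from 3 mice and 2 sets of reads for each. No transgene, deletion or drug was part of either group, and the cells of both were crosslinked with formaldehyde. Each thymus replicate was read on a GAII and a HiSeq, and the ESC replicates on a HiSeq alone. The thymus did not derive from these ESCs. Strain, tissue against culture, developmental state and sequencing platform thus differ together and cannot be told apart. A thymus consists mostly of developing T cells, but the calls hold no expression values, and the identity of the cells was not checked against markers.

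Each of 374542 autosomal fragment ends, of 399232 in the whole series, was put into 1 of 4 classes by its ESC and its thymus call. Neighboring ends of the same class were merged into runs, with the borders midway between ends of different classes. In the text, "ESC-only" means PAD in ESCs and non-PAD in the thymus, "thymus-only" means the reverse, and the remaining classes are shared PAD and shared non-PAD. Calls of the neural precursors and astrocytes of the series were not used, so these names refer to ESCs and thymus alone. Each cell type has 1 column of calls, which the authors made by majority vote over the replicates. The depth behind a call and the spread between mice or cultures are therefore unknown, no comparison below has a test, and counts over autosomes are given as descriptions.

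In mouse nuclei, the satellite-rich DNA next to the centromeres of several chromosomes gathers into chromocenters, dense bodies that carry heterochromatin marks and heterochromatin protein 1. Parts of the chromosome arms lie against these bodies, and other parts of the nucleus that hold silent chromatin are the nuclear lamina and the rim of the nucleolus. Pluripotent cells are known for chromatin that is more open and more mobile than that of committed cells.

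The sequences that carry the calls are short stretches between an MfeI site (CAATTG) and an NlaIII site (CATG), the restriction sites that delimit a fragment end. The fragment ends of at most 150 bases next to the borders of a switched run from each direction are shown, since a difference between ESCs and thymus is a difference in the call given to such sequences. They are read 5′ to 3′ on the plus strand of the mm9 reference sequence (NCBIM37), with both restriction sites in capitals. The first run is an ESC-only region on chromosome 8 (chr8:106076395-110233265) flanked by shared non-PADs.
Before its first border, shared non-PAD, chr8:106069446-106069591: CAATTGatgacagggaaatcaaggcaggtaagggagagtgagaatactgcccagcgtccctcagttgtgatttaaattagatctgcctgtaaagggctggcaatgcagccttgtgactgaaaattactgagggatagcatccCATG
After its first border, ESC-only, chr8:106076800-106076860: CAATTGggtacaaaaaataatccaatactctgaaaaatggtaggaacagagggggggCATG
Before its last border, ESC-only, chr8:110227174-110227237: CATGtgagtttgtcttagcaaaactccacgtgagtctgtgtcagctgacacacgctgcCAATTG
After its last border, shared non-PAD, chr8:110253152-110253200: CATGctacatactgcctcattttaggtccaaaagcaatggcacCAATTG
The second run is a thymus-only region on chromosome 12 (chr12:26621649-29083452), which shared non-PADs flank as well.
Before its first border, shared non-PAD, chr12:26621151-26621209: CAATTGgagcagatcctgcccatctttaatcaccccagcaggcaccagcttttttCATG
After its first border, thymus-only, chr12:26626092-26626130: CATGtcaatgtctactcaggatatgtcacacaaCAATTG
Before its last border, thymus-only, chr12:29083404-29083505: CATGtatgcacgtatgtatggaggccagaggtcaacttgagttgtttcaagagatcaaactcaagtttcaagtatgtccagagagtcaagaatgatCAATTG
After its last border, shared non-PAD, chr12:29091733-29091773: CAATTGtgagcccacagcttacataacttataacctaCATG
Borders lie midway between the positions of neighboring ends, so the last border on chromosome 12 falls inside the thymus-only sequence given for it.

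ESCs and thymus had the same call over 68.1% of the called autosomal sequence and different calls over 31.9% (770 of 2414 Mb). ESC-only sequence covered 442 Mb (18.3%) and thymus-only sequence 328 Mb (13.6%). Shared PADs covered 832 Mb (34.5%) and shared non-PADs 812 Mb (33.6%). Counted in fragment ends, 17.4% were ESC-only and 14.6% thymus-only, so the direction was the same with a smaller gap. Of the ESC PAD sequence, 65.3% was also PAD in the thymus, and of the thymus PAD sequence 71.7% was also PAD in ESCs. Beside these shares, thymus PADs covered 48.05% and ESC PADs 52.8% of all called autosomal sequence.

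**Figure D1:**
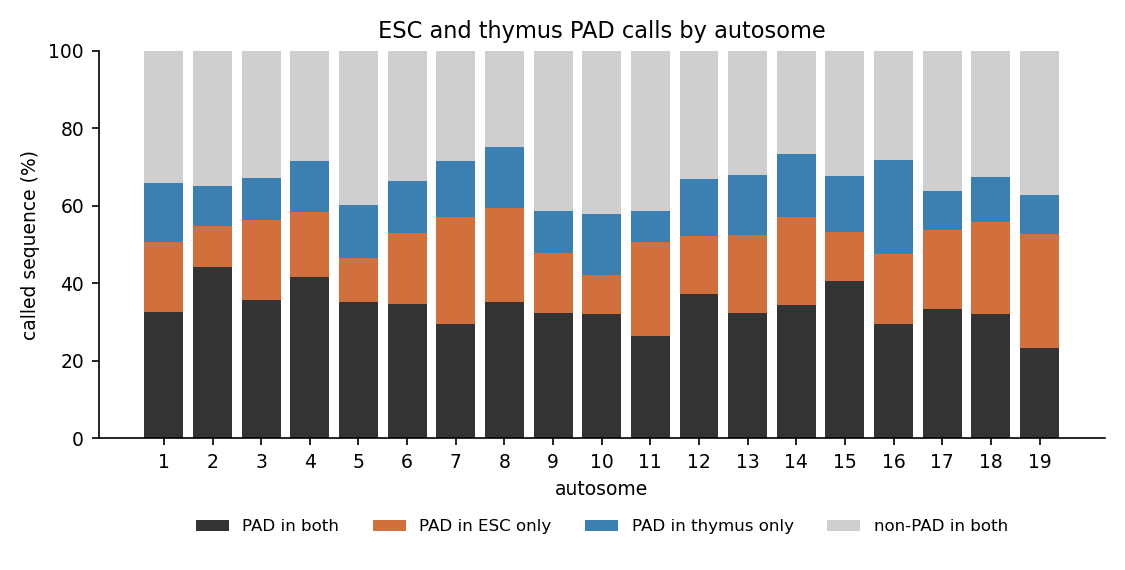
Stacked bars give, for each of the 19 autosomes (horizontal axis), the share of called sequence in percent (vertical axis) in the 4 classes. Differing calls (orange and blue together) range from 20.7% on chromosome 2 to 42.5% on chromosome 16.

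The balance between the directions varied from autosome to autosome. ESC-only sequence exceeded thymus-only sequence on 15 of 19 autosomes. It ranged from 9.90% of chromosome 10 to 29.4% of chromosome 19, and thymus-only sequence ranged from 8.03% of chromosome 11 to 24.4% of chromosome 16. The median over the autosomes was 18.3% for ESC-only and 13.6% for thymus-only sequence.

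Switched sequence lay in 1940 runs, of which 1091 were ESC-only (median 242 kb, quartiles 84.3 and 530 kb) and 849 thymus-only (median 231 kb, quartiles 89.7 and 516 kb). Runs of at least 1 Mb numbered 171 and held 35.8% of the switched sequence. At the other end of the scale, 47 runs rested on 1 fragment end, 29 ESC-only and 18 thymus-only. A run was called a whole-domain switch if both its borders belonged to the same cell type, so that a whole PAD or non-PAD of that cell type carried the other call in the other cell type. It was called a border shift if a shared PAD lay on one side and a shared non-PAD on the other. This name describes the calls alone. The error in placing a border is unknown from them, so a short border shift need not be a real displacement.

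Whole-domain switches were more frequent than border shifts in either direction. Of all switched runs, 1191 (61.4%, 467 Mb) were whole domains and 740 (38.1%, 301 Mb) were border shifts, while 9 lay at the end of the called sequence. Among the ESC-only runs, 460 were whole ESC PADs inside a thymus non-PAD (192 Mb), 208 were whole thymus non-PADs inside an ESC PAD (75.02 Mb) and 418 were border shifts (174 Mb). Among the thymus-only runs, 393 were whole ESC non-PADs inside a thymus PAD (153 Mb), 130 were whole thymus PADs inside an ESC non-PAD (47.4 Mb) and 322 were border shifts (127 Mb). Whole ESC domains thus outnumbered whole thymus domains (853 and 338), and did so on 19 of 19 autosomes. ESCs also had more PADs than the thymus (1246 and 729 on the autosomes), of a smaller median size (494 and 724 kb). The share of border shifts among the switched runs ranged from 30.2% to 46.5% over the autosomes. By sequence it ranged from 28.35% to 61.2%, and border shifts held most of the switched sequence on chromosomes 14 (59.4%), 18 (51.9%) and 19 (61.2%).

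**Figure D2:**
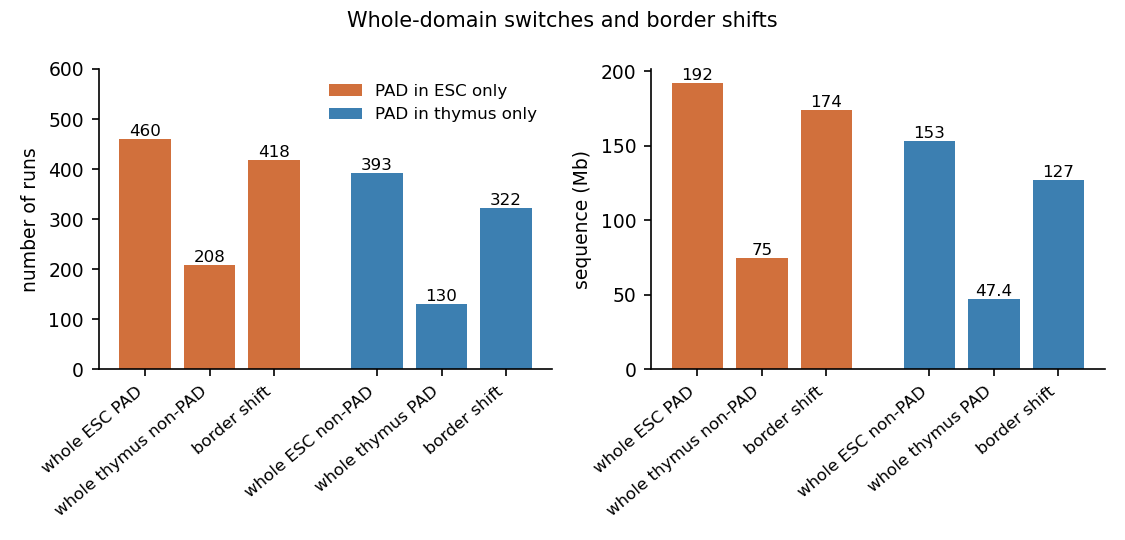
Bars give the number of runs (left) and the sequence in Mb (right) of each type of switched run, in orange for PAD in ESCs only and in blue for PAD in thymus only. Whole ESC PADs are the largest group (460 runs, 192 Mb) and whole thymus PADs the smallest (130 runs, 47.4 Mb).

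The types of run were of similar size. Border shifts had a median of 239 kb for ESC-only and 240 kb for thymus-only runs. Whole ESC PADs had a median of 255 kb, whole ESC non-PADs 238 kb, whole thymus non-PADs 234 kb and whole thymus PADs 180 kb. The quartiles of the types overlapped, with the lower ones between 72.8 and 107 kb and the upper ones between 449 and 547 kb.

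Among whole-domain switches, the largest ESC-only run lay on chromosome 4 (chr4:40335679-44523658, 4.19 Mb, 385 fragment ends) and held 113 protein-coding genes. These include the chemokines *Ccl19* and *Ccl21a*, which attract T cells and dendritic cells through the receptor Ccr7, and *Vcp*, an ATPase that extracts ubiquitinated proteins. Gaps without fragment ends, counted when over 100 kb, took 1132 kb of this run, which holds many near-identical gene copies. The run on chromosome 8 shown above (4.16 Mb, 535 ends, no such gap) held 109 genes. Among them were *Ctcf*, which codes for the insulator protein of chromatin loops, *Cdh1* for E-cadherin and *Cdh5* for the cadherin of endothelial cells. *Cbfb*, the partner subunit of the Runx transcription factors, *Nfatc3*, a transcription factor of T cell activation, and *Cenpt*, a component of the inner kinetochore, lay in the same run.

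The third ESC-only whole domain (chr2:174756012-177827462, 3.07 Mb) rested on 31 fragment ends with 2728 kb of gaps, and 49 genes were placed in it, mostly under provisional Gm symbols. The fourth lay on chromosome 11 (chr11:104543543-107106008, 2.56 Mb, 340 ends) with 39 genes, such as *Ddx5*, an RNA helicase, *Bptf*, a subunit of a chromatin remodeler, and *Pecam1*, an adhesion molecule of endothelium and blood cells. The fifth was a whole thymus non-PAD inside an ESC PAD (chr11:4423946-6682567, 2.26 Mb, 268 ends). Its 49 genes include *Xbp1*, a transcription factor of the unfolded protein response, *Ewsr1*, an RNA-binding protein gene, and the tumor suppressor *Nf2*. Each of these runs was gene-rich, with between 39 and 113 genes.

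The large thymus-only whole domains named here were gene-poor or poorly covered. The largest (chr12:21504502-25072633, 3.57 Mb) rested on 59 ends with 2690 kb of gaps and held 6 genes. The next (chr5:93562909-96422489, 2.86 Mb, 38 genes) rested on 89 ends with 2124 kb of gaps, and its named genes include *Cxcl13*, a chemokine for B cells, and *Ccng2*, a cyclin. The fourth, the run on chromosome 12 whose border sequences are given above (2.46 Mb, 504 ends, no such gap), was a thymus PAD inside an ESC non-PAD and held 5 genes. These were *Sox11*, a transcription factor of neural progenitors, the interferon-induced genes *Rsad2* and *Cmpk2*, the ubiquitin ligase gene *Rnf144a* and *Gm9866*. The fifth (chr4:111790560-114143660, 2.35 Mb, 313 ends) held 8 genes of the *Skint* family alone, which code for immunoglobulin-like membrane proteins of thymus and skin epithelium. Smaller ones could be gene-dense and well covered, such as a whole ESC non-PAD of 0.461 Mb on chromosome 7 with 31 genes, mostly olfactory receptors, on 70 ends (chr7:110533589-110994543).

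The largest ESC-only border shift (chr7:106683054-110041869, 3.36 Mb, 452 ends) held 84 genes, among them *Rrm1*, a subunit of ribonucleotide reductase, *Stim1*, the calcium sensor of store-operated calcium entry, and olfactory receptor genes from *Olfr543* to *Olfr569*. The second (chr7:27820013-30879839, 3.06 Mb) held 104 genes, with *Ryr1* for a calcium release channel of muscle, *Akt2* for a kinase of insulin signaling and a series of zinc finger genes from *Zfp60* to *Zfp566*. The third (chr18:34199766-37070417, 2.87 Mb, 61 genes) included *Apc*, a negative regulator of Wnt signaling, and *Egr1*, an immediate early transcription factor. The fourth (chr11:76487526-79231715, 2.74 Mb, 61 genes) included *Foxn1*, the transcription factor that thymic epithelium requires. The fifth (chr19:8474597-10830290, 2.36 Mb, 58 genes) included *Cd5*, a surface receptor of T cells, and *Incenp*, a subunit of the chromosomal passenger complex. As with the whole domains, all were gene-rich. A border shift can take up most of a domain. The ESC PAD that holds the fourth run (3.958 Mb) was PAD in the thymus over 2.931% of its length. The thymus non-PAD that holds the fifth (3.84 Mb) was non-PAD in ESCs over 6.625%.

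The largest thymus-only border shift (chr7:57102471-62058132, 4.96 Mb, 814 ends) was the largest thymus-only run of any type and held 9 genes. These include *Nell1*, a secreted protein gene of 890 kb, *Slc17a6*, which codes for a vesicular glutamate transporter, and *Slc6a5*, which codes for a glycine transporter. The second (chr7:21593743-24601764, 3.01 Mb) rested on 59 ends with 2296 kb of gaps and held 71 genes, mostly vomeronasal receptors of the *Vmn1r* family. The third (chr10:62962426-65391045, 2.43 Mb, 500 ends) held *Ctnna3*, a catenin gene of 1573 kb, and *Lrrtm3*, a synaptic adhesion gene. The fourth (chr8:39912985-42149273, 2.24 Mb, 370 ends) held 15 genes with *Msr1*, a scavenger receptor of macrophages, and *Fgf20*. The fifth (chr14:9835148-11932755, 2.10 Mb, 389 ends) held the midpoint of *Fhit* alone, a gene of 1612 kb that spans a common fragile site. Of these 5 runs, 3 held a gene of 890 kb or more and all but the *Vmn1r* run held 15 genes or fewer.

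**Figure D3:**
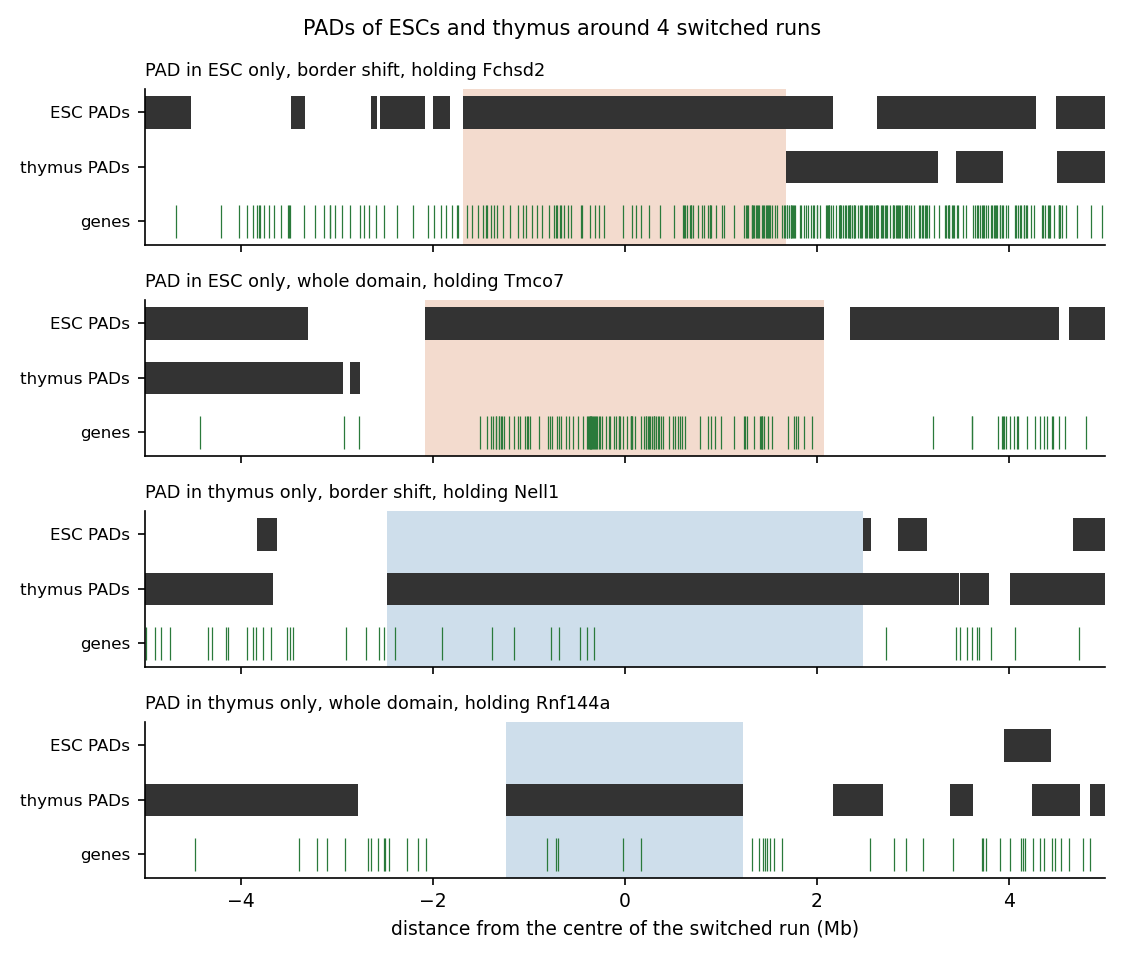
For 1 run without gaps over 100 kb of each kind and direction, the largest of those described in the text, black blocks show ESC and thymus PADs and green ticks the midpoints of protein-coding genes, against the distance from the centre of the run in Mb (shading marks the run). The ESC-only runs with *Fchsd2* (84 genes) and *Tmco7* (109 genes) are dense with genes, and the thymus-only runs with *Nell1* (9 genes) and *Rnf144a* (5 genes) are not.

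Borders rarely coincided. Of 2466 ESC borders and 1433 thymus borders, 14 lay in the same gap between fragment ends with the same orientation, and 1 did so with the opposite orientation. The median distance from an ESC border to the nearest thymus border of the same orientation was 1090 kb (quartiles 374 and 2272 kb), and 6.25% lay within 50 kb. From a thymus border to the nearest ESC border it was 493 kb (quartiles 168 and 1105 kb), and 10.5% lay within 50 kb.

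Where a stretch was PAD in both cell types, the PAD usually reached further in one of them on each side. Of 970 shared PAD stretches with a call on both sides, the thymus PAD reached further on both sides of 384 (39.6%), the ESC PAD did so for 245 (25.3%), and each reached further on 1 side for 327 (33.7%). Of 964 shared non-PAD stretches, the thymus non-PAD reached further on both sides of 515 (53.4%) and the ESC non-PAD of 139 (14.4%). The thymus domain was thus more often the wider one around these stretches, in PADs and in non-PADs alike. Several stretches can lie in 1 thymus domain, which is then counted more than once. These counts therefore also reflect that the thymus had fewer and larger domains, and are not a separate result on width.

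Followed as whole domains, many ESC PADs had no counterpart. Of 1246 ESC PADs, 474 (38.0%) were retained, which means that at least 90% of their sequence was PAD in the thymus, 484 (38.8%) were switched, with at most 10%, and 288 (23.1%) were partial. Of 729 thymus PADs, 319 (43.8%) were PAD in ESCs over at least 90% of their length, 153 (21.0%) over at most 10%, and 257 (35.3%) lay between. Switching was most frequent among small domains, which were seldom partial. ESC PADs under 100 kb were switched in 123 of 224 cases (54.9%), and those over 2 Mb in 10 of 182 (5.49%). Thymus PADs under 100 kb were switched in 44 of 112 cases (39.3%), and those over 2 Mb in 11 of 183 (6.01%). Small PADs were also often retained, 98 in ESCs (43.75%) and 65 in the thymus (58.04%) under 100 kb, and 3 in each were partial. Of the PADs over 2 Mb, 76 in ESCs (41.76%) and 53 in the thymus (28.96%) were retained. Another 96 in ESCs (52.75%) and 119 in the thymus (65.0%) were partial.

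Non-PADs were also switched most often when small, in 91 of 188 ESC cases (48.4%) and 64 of 109 thymus cases (58.7%) under 100 kb, and in 5 of 157 and 7 of 172 over 2 Mb. The same limit of size holds for them, and the small ones stand beside 48.05% PAD sequence in the thymus and 52.8% in ESCs. Of 1239 ESC non-PADs, 590 (47.6%) were retained, 234 (18.9%) partial and 415 (33.5%) switched. Of 723 thymus non-PADs, 210 (29.0%) were retained, 288 (39.8%) partial and 225 (31.1%) switched. ESC domains were thus retained more often than thymus domains among non-PADs and less often among PADs. Of the non-PADs under 100 kb, 93 in ESCs (49.47%) and 41 in the thymus (37.61%) were retained, and 4 in each were partial. Of the non-PADs over 2 Mb, 86 of 157 in ESCs (54.8%) were retained and 66 (42.0%) partial, while 28 of 172 in the thymus (16.3%) were retained and 137 (79.7%) partial.

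Overlapping PADs formed groups. There were 179 pairs of 1 ESC PAD with 1 thymus PAD, 104 thymus PADs that overlapped several ESC PADs (345 in all), and 46 ESC PADs that overlapped several thymus PADs. A further 62 groups held several PADs of each cell type, 462 ESC PADs overlapped no thymus PAD and 130 thymus PADs overlapped no ESC PAD. A group on chromosome 7 (63594116 to 70262361) joined 8 ESC PADs under 1 thymus PAD, and 1 on chromosome 4 (63303857 to 82887007) joined 7. In the reverse arrangement, 1 ESC PAD on chromosome 8 (77813496 to 83519835) covered 5 thymus PADs.

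The sequence of the switched classes was close to the class with the same thymus call, not to the class with the same ESC call. ESC-only sequence held 12.9 protein-coding genes per Mb, near the 12.5 of shared non-PADs, and thymus-only sequence held 3.82, near the 5.11 of shared PADs. Gene bodies filled 49.1% of ESC-only and 50.4% of shared non-PAD sequence, against 28.2% of thymus-only and 26.3% of shared PAD sequence. GC content was 43.6% in ESC-only, 44.9% in shared non-PAD, 39.6% in thymus-only and 39.1% in shared PAD sequence. Promoters rich in CpG, as many broadly expressed genes have, made up 43.8%, 46.5%, 28.2% and 22.4% of the promoters in the same order. They were defined as 250 bases before to 50 after the start with at least 55% GC and a ratio of observed to expected CpG of at least 0.6.

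The contrast between the switched classes was present on almost every autosome. Gene density and GC content were higher in ESC-only than in thymus-only sequence on 19 of 19 autosomes, and the gene body share on 18 of 19. Against shared PADs, ESC-only sequence was higher in gene density on 19 of 19 autosomes, and against shared non-PADs on 9 of 19. GC content was nevertheless lower in ESC-only sequence than in shared non-PADs on 19 of 19 autosomes. Thymus-only sequence had fewer genes per Mb than shared PADs on 15 of 19 autosomes and more GC on 13 of 19.

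The density of the cutting sites moved with the classes. MfeI sites numbered 166 per Mb in ESC-only, 150 in shared non-PAD, 219 in thymus-only and 229 in shared PAD sequence, and fragment ends 147, 140, 167 and 170 per Mb. ApoI sites, at which the satellite side of a ligation was cut, numbered 1570, 1392, 2154 and 2259 per Mb. Both enzymes cut at AT-rich sites, and the part of site density and AT content in the calls was not tested.

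**Figure D4:**
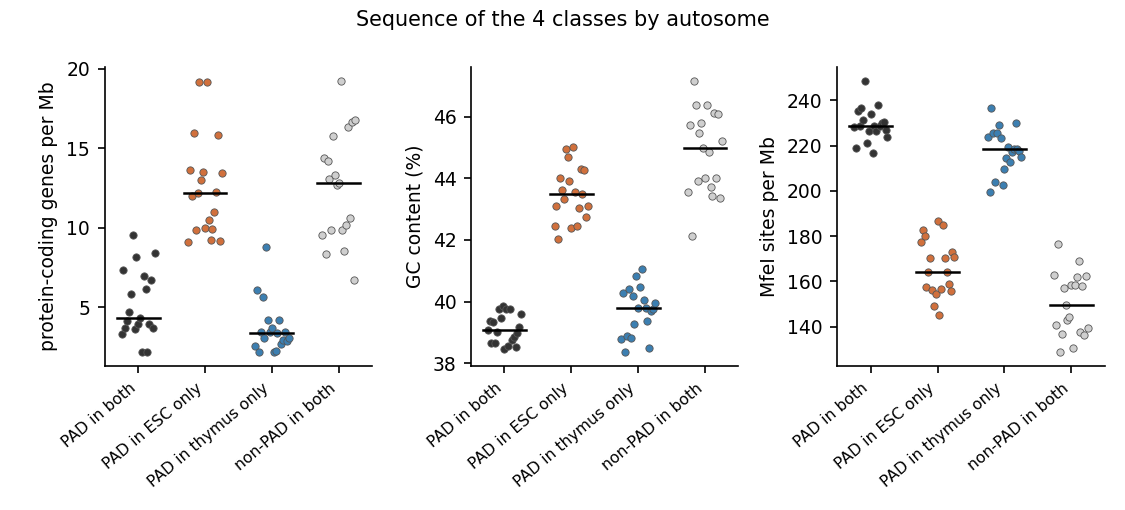
Each point is 1 of 19 autosomes and each black line the median, for protein-coding genes per Mb, GC content in percent and MfeI sites per Mb in the 4 classes. ESC-only sequence (orange) has 9.08 to 19.2 genes per Mb and thymus-only sequence (blue) 2.17 to 8.81, and ESC-only sequence has the higher GC content on every autosome.

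For gene density, the type of run made a smaller difference than the direction. This did not hold throughout for GC content, which was close in whole thymus non-PADs (42.3%) and whole thymus PADs (41.2%). Among ESC-only runs, gene density was 13.5 per Mb in whole ESC PADs, 12.3 in whole thymus non-PADs and 12.6 in border shifts, with a GC content of 44.3%, 42.3% and 43.3%. Among thymus-only runs, it was 3.18 per Mb in whole ESC non-PADs, 4.39 in whole thymus PADs and 4.38 in border shifts, with 38.6%, 41.2% and 40.2% GC. Whole ESC PADs inside thymus non-PADs differed little from the shared non-PAD sequence within 250 kb of them (44.7% GC and 50.6% gene bodies, against 44.3% and 50.8% inside). Whole ESC non-PADs inside thymus PADs differed little from the shared PAD sequence next to them (38.6% GC on either side of the border). Whole thymus PADs inside ESC non-PADs had 41.2% GC and 33.4% gene bodies, also close to the 41.7% and 35.2% of the shared non-PAD sequence beside them, so that little changed at these thymus borders. Whole thymus non-PADs inside ESC PADs had 42.3% GC and 45.85% gene bodies, against 40.4% and 38.15% in the shared PADs beside them.

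At border shifts, gene bodies changed more at the thymus border than at the ESC border. ESC-only shifts had 48.6% gene bodies inside, 47.6% in the adjoining shared non-PAD and 34.0% in the adjoining shared PAD, which lies past the thymus border. Thymus-only shifts had 29.7% inside, 31.6% in the adjoining shared PAD and 42.4% in the adjoining shared non-PAD.

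Each autosome was divided into 5 equal parts, with part 1 beside the centromere. Shared PADs declined from 52.9% of part 1 to 13.7% of part 5, and shared non-PADs went from 16.3% to 57.7%. Differing calls stayed between 28.6% and 34.1% in every part. Their direction did not stay the same. ESC-only sequence went from 14.3% to 21.4%, and thymus-only sequence from 16.5% to 7.25%.

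Each protein-coding gene was given the class at the midpoint of its longest transcript. Of 21397 such genes on the autosomes, 26.7% (5719) were ESC-only and 5.86% (1254) were thymus-only. Shared PADs held 19.9% (4255) and shared non-PADs 47.5% (10169). There were 4.56 ESC-only genes for each thymus-only gene, while the sequence of the classes differed by much less. A border of a class crossed 1159 genes (5.42%). Of the ESC-only genes, 86.1% lay in the 326 ESC-only runs with at least 5 genes, while 361 of the 1091 runs held none. Of the thymus-only genes, 58.5% lay in the 67 runs with at least 5 genes, and 478 of 849 runs (56.3%) held none. Runs with at least 5 genes held 84.25% of the shared PAD and 93.8% of the shared non-PAD genes. A run reaches 5 genes more easily where genes are dense, so these shares do not compare how scattered the genes were. Genes longer than 300 kb made up 6.46% of the thymus-only genes and 3.78% of the shared PAD genes, but 1.43% of the ESC-only and 1.65% of the shared non-PAD genes.

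The shares of 26.7% ESC-only, 5.86% thymus-only, 19.9% shared PAD and 47.5% shared non-PAD genes are the background for the gene lists that follow. Neighboring members of a list often share a run and then have a single call between them, so the number of runs is given where it matters, and the lists have no test. Genes that every cell uses were somewhat above the background in both classes that are non-PAD in the thymus, ESC-only and shared non-PAD. They were below it in the thymus-only and shared PAD classes. Over the 8 lists of housekeeping machinery, which count 395 genes, 139 (35.2%) were ESC-only in 95 runs, 10 (2.53%) thymus-only, 30 (7.59%) shared PAD and 216 (54.7%) shared non-PAD. Shares were highest for tRNA synthetases (16 of 34, 47.1%, in 14 runs), translation factors (24 of 55, 43.6%, in 20 runs) and the proteasome (17 of 40, 42.5%, in 14 runs). They were near the background for the respiratory chain (22 of 88, 25%).

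Members with an ESC-only call included *Aars* and *Hars*, which charge alanine and histidine tRNAs, *Eif4a1* and *Eif5a*, factors of translation initiation and elongation, and *Polr2a*, the largest subunit of RNA polymerase II. *Eif4a1*, *Eif5a*, *Polr2a* and the Mediator subunit *Med11* lay in 1 whole thymus non-PAD of 2.15 Mb with 109 genes on chromosome 11. The thymus-only exceptions were *Mrpl50*, *Mrpl19* and *Mrps30* of the mitochondrial ribosome, *Cox7c* of cytochrome oxidase, the proteasome subunits *Psmc2* and *Psmd6*, the initiation factor subunits *Eif3e* and *Eif3m*, and the splicing genes *Snrpd1* and *Snrpn*. Of these 10 genes, *Mrps30* and *Cox7c* were the only gene in their runs, of 521 and 309 kb.

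Cell cycle and metabolic lists varied. DNA replication genes were near the background, ESC-only for 7 of 27 (25.9%), thymus-only for 2 (7.41%) and shared PAD for 6 (22.2%). ESC-only were among others the origin factors *Orc1* and *Mcm6*, and thymus-only *Orc5* and *Mcm3*. Cyclins, their kinases and the kinase inhibitors were ESC-only for 7 of 21 (33.3%). These were the cyclin genes *Ccna1*, *Ccnb1*, *Ccne1* and *Ccne2*, the kinase gene *Cdk7* and the inhibitor genes *Cdkn1c* and *Cdkn2d*. Glycolytic genes were ESC-only for 9 of 20 (45.0%) in 7 runs, and *Gapdh*, *Tpi1* and *Eno2* shared a border shift of 2.11 Mb on chromosome 6. In cholesterol synthesis, 5 of 16 genes were ESC-only and *Cyp51* was thymus-only.

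Genes for proteins of heterochromatin and chromocenters were called ESC-only in 10 of 23 cases (43.5%), each in a run of its own. They are *Cbx5* for heterochromatin protein 1 alpha, *Dnmt1* and *Uhrf1* for maintenance of DNA methylation, and *Setdb1*, *Ehmt1* and *Ehmt2* for methylation of lysine 9 of histone H3. *Suv420h2*, for methylation of lysine 20 of histone H4, and the corepressor and methyl-binding genes *Trim28*, *Chd4* and *Mbd2* complete the group. *Suv39h2*, a methyltransferase gene of pericentromeric heterochromatin, was thymus-only, in a border shift of 106 kb with 15 ends. Polycomb genes were ESC-only in 7 of 21 cases (33.3%), and these include *Ezh2*, *Suz12* and *Eed*, the core of Polycomb repressive complex 2. Genes of the lamina and nuclear envelope were in shared non-PADs in 13 of 14 cases, with *Syne2*, which links the nucleus to the cytoskeleton, as the ESC-only exception.

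**Figure D5:**
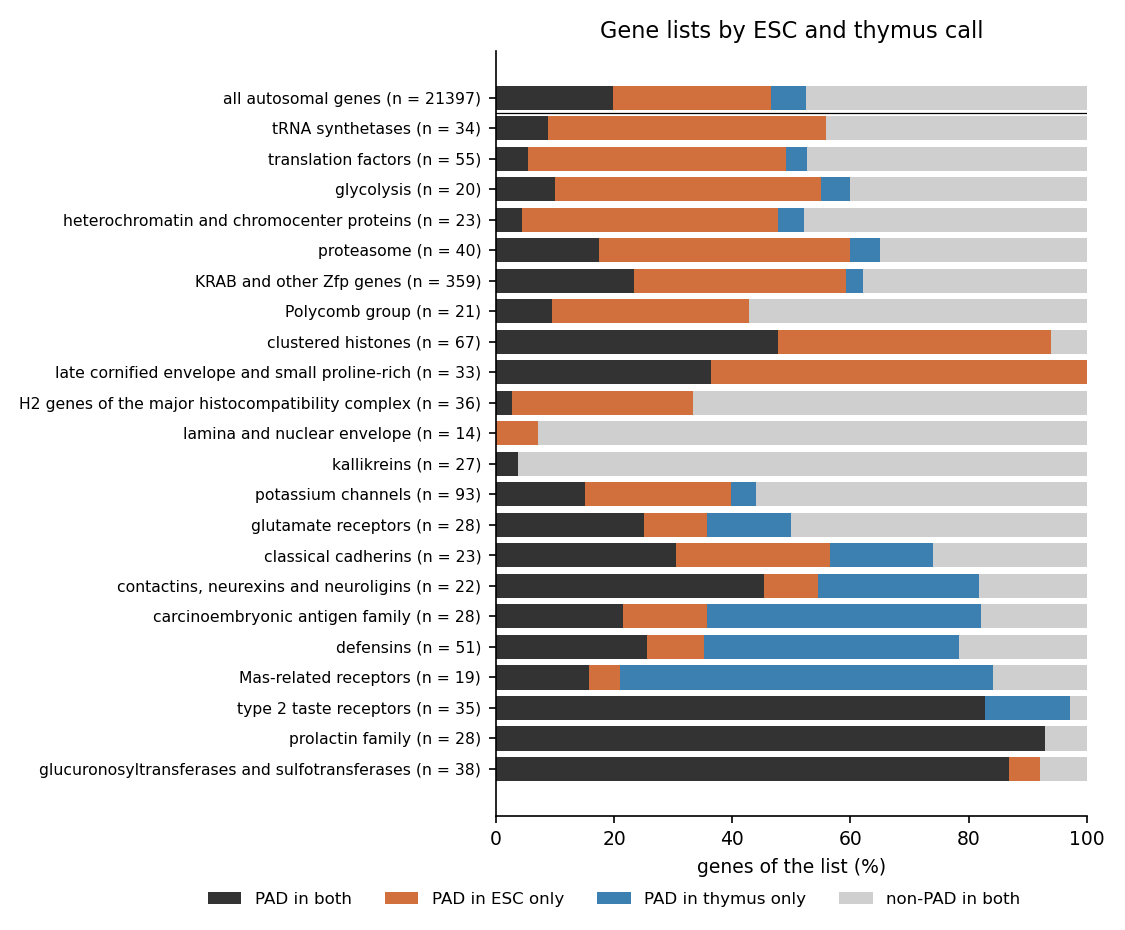
Stacked bars give the share in percent of all 21397 genes (top) and of the genes of selected lists (n in the labels) with each combination of calls. The contactin bar includes the *Lrrtm* genes. Several lists near the background, such as the respiratory chain and the pluripotency genes, are not shown. Orange (ESC-only) is widest in tRNA synthetases (47.1%), clustered histones (46.3%) and the late cornified envelope genes (63.6%), and blue (thymus-only) in Mas-related receptors (63.2%), the carcinoembryonic antigen family (46.4%) and defensins (43.1%).

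Neither list of T cell genes was above the ESC-only background by much. T cell antigen receptor signaling had 7 of 25 genes ESC-only (28.0%), all in separate runs. They include *Lat* and *Lcp2*, adaptors next to the receptor, *Ptpn22*, a phosphatase, *Bcl10* and *Malt1*, which relay the signal to NF-kappaB, and *Nfatc3*. *Ptprc*, for the phosphatase CD45, was thymus-only by its midpoint, crossed a border, and lay in a run of 71.4 kb with 13 ends. T lineage transcription factors were ESC-only for 4 of 26 (15.4%, in 3 runs), below the background, and in shared non-PADs for 18 (69.2%). *Lef1*, a partner of beta-catenin in early thymocytes, *Hes1*, a Notch target, and *Sox4*, which has 2 entries in the annotation, were ESC-only. *Ikzf2*, a transcription factor of regulatory T cells, was thymus-only in a whole ESC non-PAD of 1479 kb with 2 genes.

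Other immune lists lay on either side of the background. Cytokines and their receptors were ESC-only for 29 of 110 (26.4%) and thymus-only for 10 (9.09%, in 6 runs), such as *Il15*, *Il5ra* and *Il17a*. Of 58 chemokine genes and receptors 14 (24.1%) were ESC-only in 5 runs, among them the *Ccl19* and *Ccl21* genes of the chromosome 4 run. *H2* genes were ESC-only for 11 of 36 (30.6%) in 4 runs, such as the class I gene *H2-D1*. Of 59 C-type lectin and killer receptor genes, 34 (57.6%) were in shared non-PADs, 5 (8.47%) ESC-only and 5 thymus-only in 2 runs. Of the thymus-only members, *Klrb1b*, *Klrb1c*, *Clec2g* and *Clec2i*, receptors of natural killer cells and their ligands, lay in 1 border shift of 276 kb.

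Pluripotency genes were ESC-only in 9 of 34 cases (26.5%), the background share. *Sox2*, a core factor of the network, was the only gene of its whole ESC PAD of 900 kb, and *Nr5a2* that of 1 of 338 kb. *Klf5* and *Tcfcp2l1* lay in border shifts, and *Utf1*, *Fgf4* and the Nodal inhibitors *Lefty1* and *Lefty2* in whole ESC PADs. *Zfp42*, which codes for the ESC marker Rex1, had the opposite call. It was thymus-only in a whole ESC non-PAD of 989 kb with 4 genes.

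Lists of developmental regulators varied around the background. *Sox* genes were above it in both directions, ESC-only for 7 of 18 (38.9%, with both *Sox4* entries) and thymus-only for *Sox9*, *Sox11* and *Sox30* (16.7%), and *Sox9*, a factor of cartilage and testis, was alone in its run of 206 kb. T-box genes were ESC-only for 5 of 12 (41.7%), with *Tbx2* and *Tbx4* in 1 border shift of 1845 kb. Of the GATA genes in the list of early lineage factors, *Gata2* (blood) and *Gata4* (heart and endoderm) were ESC-only, and *Gata6* (primitive endoderm and heart) was thymus-only with 13 genes in 1801 kb. Homeobox genes of the LIM, Pax, Pou and Nkx type and relatives were ESC-only for 13 of 60 (21.7%), and thymus-only for *Isl1*, *Pou1f1* and *Pou4f1*. Among the ligands, *Wnt2*, *Fgf12*, *Fgf20* and *Bmp3* were thymus-only, and *Wnt7a*, *Wnt8a*, *Fgf9* and *Bmp2* ESC-only.

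Neural and adhesion lists differed in their thymus-only share, which by midpoint was above the background of 5.86% in 4 of 5 lists. Over the 5 lists with 185 genes, 20 (10.8%) were thymus-only in 19 runs and 39 (21.1%) ESC-only in 28 runs, but potassium channels, with 93 of these genes, were thymus-only for 4 (4.30%). Contactins, neurexins, neuroligins and *Lrrtm* genes, for adhesion proteins of axons and synapses, were thymus-only in 6 of 22 cases (27.3%), each in a run of its own, and 10 were shared PAD. Those in the largest runs were *Lrrtm3*, *Cntnap5b*, *Cntn6* and *Cntnap5c*. Glutamate receptors were thymus-only for 4 of 28 (14.3%), including *Gria2*, *Grin3a* and *Grid1*, and ESC-only for *Grin1*, *Grm6* and *Grik1*. Of these named thymus-only receptors *Gria2* and *Grid1* crossed a border. GABA and glycine receptors were shared PAD for 11 of 19 (57.9%), ESC-only for 5 and thymus-only for 2 (10.5%). By transcription start site 1 was thymus-only (5.263%), below the 5.814% of all genes placed that way.

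Of 23 cadherin genes, 6 (26.1%) were ESC-only in 3 runs, 4 (17.4%) thymus-only, 7 shared PAD and 6 shared non-PAD. *Cdh1*, *Cdh3*, *Cdh5* and *Cdh16*, which act in epithelium or endothelium, were ESC-only in the chromosome 8 run, and *Cdh13*, which crossed a border, and *Cdh15* were ESC-only in 2 other runs. *Cdh7*, *Cdh8*, *Cdh10* and *Cdh20*, which the nervous system expresses, were thymus-only, each alone in a whole ESC non-PAD of 511 to 1753 kb. *Cdh8* crossed a border and was shared PAD by its transcription start site. Potassium channels were ESC-only for 23 of 93 (24.7%) and thymus-only for 4, of which 3 (*Kcnq5*, *Kcnmb2* and *Kcnip4*) crossed a border and had another class by the transcription start site.

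Tandem gene families took 1 call over many members, so their counts rest on few runs. Zinc finger genes of the *Zfp* type, many of which code for KRAB repressors of transposons, were ESC-only for 129 of 359 (35.9%) in 62 runs and thymus-only for 10. Clustered histone genes were ESC-only for 31 of 67 (46.3%) in 3 runs, with *Hist2h2aa1* and its neighbors in a whole ESC PAD of 1858 kb that also holds *Setdb1*. Another 32 histone genes were shared PAD. Genes of the late cornified envelope and small proline-rich proteins of the epidermis, such as *Lce1a1*, were ESC-only for 21 of 33 in 1 border shift of 1422 kb.

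Several tandem families held many thymus-only genes. Mas-related receptors of sensory neurons were thymus-only for 12 of 19, in 1 whole ESC non-PAD of 1290 kb that held 12 genes, such as *Mrgpra1*. Defensins were thymus-only for 22 of 51 (43.1%) in 2 runs. The run with *Defa20* and *Defa21* rested on 19 fragment ends over 678 kb. The carcinoembryonic antigen family was thymus-only for 13 of 28 in 1 run of 899 kb with *Ceacam12* and *Psg17*, while *Ceacam1* and *Ceacam2* were ESC-only. Keratin-associated proteins of hair were thymus-only for 7 of 46 (15.2%) in 2 runs, such as *Krtap6-1*. Type 2 taste receptors, which detect bitter compounds, were thymus-only for 5 of 35 (14.3%) in 2 runs and shared PAD for 29. Vomeronasal receptors were thymus-only for 52 of 319 (16.3%) in 5 runs, ESC-only for 26 and shared PAD for 205. Most of the thymus-only ones lay in the *Vmn1r* run on chromosome 7, which rested on 59 ends with 2296 kb of gaps. Olfactory receptors, the largest family, were shared PAD for 710 of 1081 (65.7%), ESC-only for 172 (15.9%) in 25 runs and thymus-only for 88 (8.14%) in 14 runs. Claudins of tight junctions were thymus-only for 4 of 26 (15.4%) and collagens for 4 of 41 (9.76%), and kinesins for none of 36.

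Some families hardly differed between the cell types. Kallikreins were shared non-PAD for 26 of 27, trace amine receptors for 15 of 15, prolactin family genes were shared PAD for 26 of 28, and glucuronosyltransferases and sulfotransferases for 33 of 38.

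Sparse coverage touched the thymus-only genes most. Stretches of over 100 kb without a fragment end held the midpoints of 119 of the 1254 thymus-only genes and of 143 of the 5719 ESC-only genes, so that the call of these genes was taken from ends beside them. They lay in 18 runs of each direction. The runs with *Vmn1r*, *Defa* and many Gm genes are of this kind, and what reads could be mapped to such repeated genes is unknown from the calls.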

How the data were processed

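The deposited table gives the call PAD or nPAD for 399232 fragment ends in each of 4 cell types, and 2 of the 4 columns were used. The authors aligned the reads to a genome reduced to fragment ends (mm9, Y left out) and binned the reads of every end. They ran a two-state hidden semi-Markov model (R package mhsmm) per replicate, and the majority of the replicates decided the call. Ties were settled by a virtual replicate made of the pooled reads. For the aligner, no name is given in the sources used here. Each deposited value is therefore a consensus call with no count, and depth, replicate spread and batches could not be examined. The 2 sets of reads of each thymus replicate (GAII and HiSeq) were taken from their labels as runs of the same replicate.

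Runs of the same class were built with borders midway between neighboring ends. A whole-domain switch had both borders from the same cell type, and a border shift had a shared PAD on one side and a shared non-PAD on the other. Protein-coding genes of GENCODE vM1 were placed by the midpoint of the longest transcript, and 21 of 21418 lay outside the called sequence. Sequence came from NCBIM37, which is mm9. Python 3.11.15, numpy 2.4.6, pandas 2.3.3 and matplotlib 3.10.9 were used, and the merging and typing of runs was tested on simulated calls with planted runs. No p-value was computed, since each cell type has 1 consensus.

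The members and gene lists were chosen with earlier results of these data known. The text names the 5 largest whole-domain switches and the 5 largest border shifts of each direction, and members with differing calls of 54 gene lists, at most 4 per direction for lists given by symbol pattern. Other genes of these runs, families that hardly differed, and the small RNA genes were named after their values were seen. One thymus-only whole domain, the third by size, and some list members are not reported here. Symbols are those of GENCODE vM1. Alternatives were counting in fragment ends, chromosome X, borders at the outermost ends, gaps over 100 kb left out, runs under 5 ends absorbed, runs of at least 100 kb, limits of 80% and 20% for retained and switched domains, genes placed by their transcription start site, and genes wholly inside 1 run.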

Additional observations from a re-analysis of the deposited data

How the results depend on the processing

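No paired analysis was possible because the calls hold 1 consensus column for each cell type. For the same reason no replicate could be left out, and depth and replicate error are unknown. Of 58 values recomputed under the alternatives, 48 stayed within their tolerance (a 95% binomial interval for shares, 1.5 times for counts). All 216 of 216 values of the gene lists did so too, but the interval of a short list is too wide to show much. By transcription start site, thymus-only GABA and glycine receptors went from 10.53% to 5.263%. ESC-only T-box genes went from 41.67% to 33.33%, and ESC-only lamina genes from 7.143% to 14.29%. Each of these was within tolerance. The ESC-only share of the sequence went from 18.32% to 17.39% counted in fragment ends and to 18.17% with chromosome X. The thymus-only share went from 13.58% to 14.59%, to 14.06% with chromosome X and to 13.45% without gaps over 100 kb. Border shifts were 41.71% instead of 38.31% of the ESC-only runs when runs under 5 ends were absorbed. With limits of 80% and 20%, 43.02% of ESC PADs and 52.13% of thymus PADs were retained, instead of 38.04% and 43.76%. Shared non-PADs had 12.28 genes per Mb with chromosome X, and 5.356% of the genes wholly inside 1 run were thymus-only. The cause of these shifts was not tested beyond what each alternative changes by construction. ESC-only calls stayed ahead of thymus-only calls in sequence and in genes in these alternatives.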

Other observations

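Small RNA genes were placed in the same way, after the values of the protein-coding genes had been seen, and the runs named here were chosen by their counts. Of 1458 small nucleolar RNA (snoRNA) genes of the annotation, 262 (17.97%) were thymus-only, beside 5.86% of the protein-coding genes and 13.6% of the called sequence. Of the thymus-only snoRNA genes, 137 lay in a single run on chromosome 7 (65499373 to 66906061, 1407 kb, 155 fragment ends). This run holds *Ube3a* and *Atp10a* of the imprinted Prader-Willi and Angelman region and the tandem *SNORD115* copies. The other 125 are spread over other runs. The imprinted genes *Ndn*, *Magel2*, *Mkrn3* and *Peg12* nearby were thymus-only too (68899186 to 70262361), and *Snrpn* lay in a thymus-only whole ESC non-PAD of 985 kb. The runs with *SNORD115* and with *Ndn* lie in the same thymus PAD, that of the chromosome 7 group given above (63594116 to 70262361). They are thus not separate observations of the thymus call.

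Among 1468 microRNA genes, 481 (32.8%) were ESC-only and 118 (8.04%) thymus-only. For comparison, 26.7% of the protein-coding genes and 18.3% of the called sequence were ESC-only, and 5.86% and 13.6% thymus-only. Of the ESC-only genes, 119 lay in 1 run of 413 kb with *Sfmbt2* on chromosome 2, a Polycomb-related gene with a large intronic microRNA cluster in rodents. Another 58, with 23 snoRNA genes, lay in a run of 924 kb on chromosome 12 with the imprinted genes *Dlk1* and *Rtl1*. The ESC-only share of microRNA genes thus rests in good part on these runs. The microRNA genes *Mir17*, *Mir18*, *Mir19a*, *Mir20a*, *Mir19b-1* and *Mir92-1* of 1 primary transcript, known for its part in proliferation and lymphocyte development, lay in a thymus-only run of 628 kb on chromosome 14 that held no protein-coding gene by midpoint. Of 4045 pseudogenes, 37.2% were in shared PADs, which held 19.9% of the protein-coding genes and 34.5% of the called sequence. Per Mb, pseudogenes numbered 1.81 in shared PAD, 1.93 in ESC-only, 1.58 in shared non-PAD and 1.24 in thymus-only sequence.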
